A study of Homo sapiens with 3 samples.

Results

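H19 and 9 other imprinted genes (IGF2, CDKN1C, KCNQ1OT1, PEG10, MEST, SGCE, SNRPN, NDN and PLAGL1) were followed in KYSE30, an established line of human esophageal squamous cell carcinoma. These 10 genes, of 60554 genes in the deposited table, were taken by symbol. They were listed because the H19 count was known to be lower in both shRNA libraries than in the control, so that difference is described here without a test. RNA was sequenced from 3 stable lines with 1 library each: a line labelled shRNA 1 and a line labelled shRNA 2, which carry different hairpins against the small nucleolar RNA SNORD12B, and a control line. All were made with the pLKO.1-blast lentiviral vector and exposed to virus for 24 hours. They were grown in RPMI-1640 with 10% serum and selected with 5 µg/mL blasticidin for 2 weeks. The control is called a vector in its genotype label and a non-targeting scrambled shRNA in the protocol. The question put to these data is whether the lower H19 level is shared by other imprinted loci.

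Imprinted genes are transcribed mainly from the copy inherited from a given parent, because DNA methylation laid down in the germ line differs between the maternal and the paternal copy. H19 and IGF2 share a control region on chromosome 11: on the maternal copy the factor CTCF binds there and H19 is transcribed, while on the paternal copy that region is methylated and IGF2 is transcribed. H19 makes a long non-coding RNA, abundant in the fetus, mostly silent in adult tissue and re-expressed in many tumours, and it is the host of the microRNA miR-675. IGF2 encodes a fetal growth factor. The other genes belong to separate imprinted domains on chromosomes 6, 7, 11 and 15.

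The miR-675 hairpin lies in an exon of H19, and the sequences of its mature products are shown because H19 RNA is their precursor. They are given 5′ to 3′ from RefSeq (GRCh38.p14, minus strand of chromosome 11), with the seed, bases 2 to 8, in capitals.
hsa-miR-675-5p: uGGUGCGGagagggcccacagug
hsa-miR-675-3p: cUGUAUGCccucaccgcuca
Of 2370 mature human miRNA names in the RefSeq table, 1 other (hsa-miR-4466) has the seed of miR-675-5p and 0 others have that of miR-675-3p. All 73 bases of the hairpin fall in H19 exons and also within ENSG00000278648, a short gene row on the same strand that had 0 counts in each library. All 113 bases of that row lie in H19 exons. The counting program's default assigns a read overlapping both rows to neither, so this 0 is not a measured absence. The mature miRNAs themselves were not measured in these libraries.

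Short gene rows also lie inside H19 exons on the opposite, plus strand, and 2 of them had more than 1 count in a library. Another, ENSG00000280586, had 0, 0 and 1 counts in the shRNA 1-labelled and shRNA 2-labelled libraries and in the control. The GENCODE 29 sequences of the 2 are shown because their counts, like those of H19, were lower in both shRNA libraries than in the control.
ENSG00000275266 (chr11:1996540-1996610): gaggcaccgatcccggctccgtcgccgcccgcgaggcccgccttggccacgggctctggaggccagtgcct
ENSG00000274866 (chr11:1997484-1997552): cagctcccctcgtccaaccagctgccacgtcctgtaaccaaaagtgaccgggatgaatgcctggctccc
The reverse complement of the first stands unbroken in 5 of 12 H19 transcripts of that annotation, and that of the second in 2.

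Counts summed to 15146805 in the library labelled shRNA 1, 17336936 in that labelled shRNA 2 and 15473922 in the control. SNORD12B was counted 15 times, 1 time and 7 times in that order, so the few reads of the library labelled shRNA 1 go against that label. Every direction given below for both shRNAs rests on libraries whose knockdown is unchecked. Of 10 squamous epithelial markers, 9 were at 1 CPM (counts scaled to a common library size) or more in each library, and their summed level was 1300.2, 1896 and 2239 CPM. Of the tested squamous markers, 7 of 9 were lower than the control with either label, beside 27.0% of all 17801 tested genes, and their part in the results on imprinted genes was not tested. Of 6 fibroblast markers, COL1A2, DCN, LUM and THY1 had 0 counts in each library. COL1A1 had 142, 230 and 245 counts in the shRNA 1-labelled and shRNA 2-labelled libraries and in the control. PDGFRB had 0, 8 and 1 in that order. No line had a replicate culture, so intervals below are exact 95% intervals that cover counting error only. In bulk RNA, fewer cells expressing a gene and less RNA per cell cannot be told apart.

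H19 (ENSG00000130600.15, chr11:1995163-2001470, minus strand, hg38) was counted 377 times in the library labelled shRNA 1, 1287 times in the library labelled shRNA 2 and 5068 times in the control. Its level was 24.8 CPM (22.4 to 27.4) in the shRNA 1-labelled library, 74.0 CPM (70.0 to 78.1) in the shRNA 2-labelled library and 329.9 CPM (320.9 to 339.1) in the control, with library sizes scaled by TMM. Both shRNA libraries thus lay far below the control, and their intervals did not meet each other. With the label shRNA 1 the ratio to the control was 0.0751 (0.0675 to 0.0834), and with the label shRNA 2 it was 0.224 (0.211 to 0.238). H19 was 0.335 times as high (0.298 to 0.376) in the library labelled shRNA 1 as in the library labelled shRNA 2. Among genes with a count, its level per kilobase of exon ranked 5799th with the label shRNA 1, 1986th with the label shRNA 2 and 345th in the control.

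**Figure D1:**
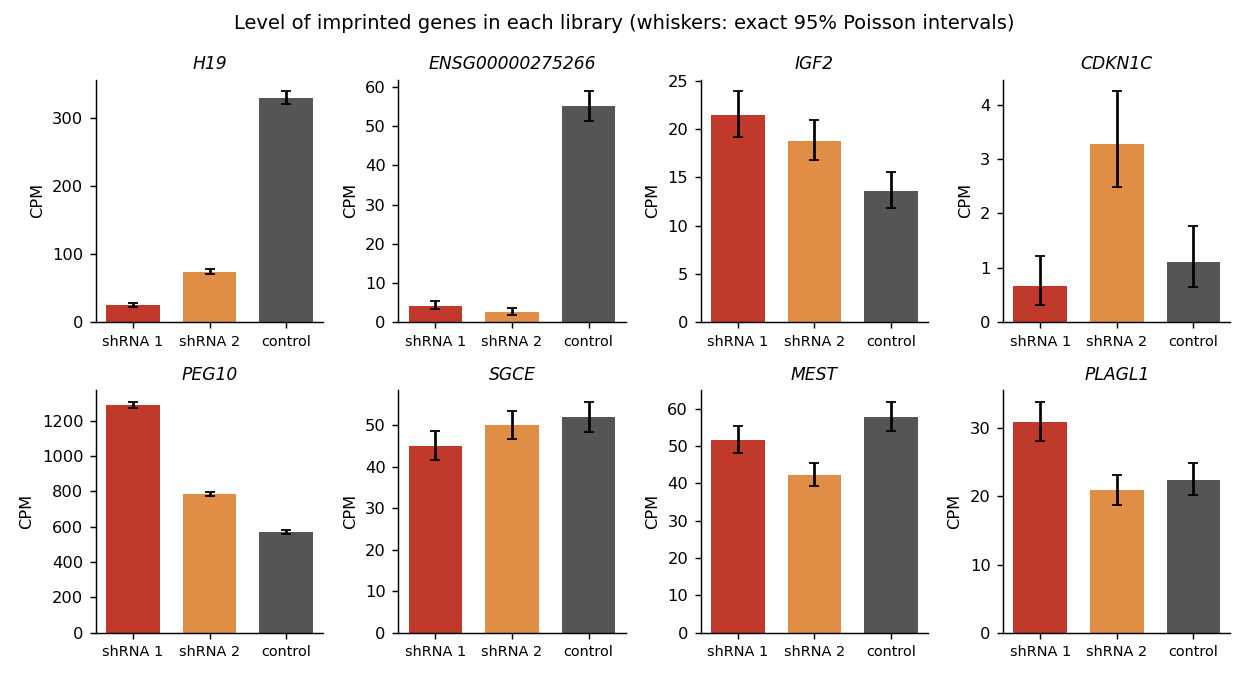
Bars give the level (CPM, each axis from 0) of H19, the plus-strand row ENSG00000275266 inside it and 6 other imprinted genes in the shRNA 1-labelled and shRNA 2-labelled libraries and in the control, with exact 95% Poisson intervals as whiskers. H19 and ENSG00000275266 stand far below the control in both shRNA libraries, IGF2 and PEG10 above it in both, and CDKN1C on opposite sides of it.

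Among abundant genes H19 stood near the low extreme. Of 2255 tested genes with at least 100 CPM in the control, 0 had a lower log2 ratio in the library labelled shRNA 1 and 2 had a lower one in the library labelled shRNA 2. The 2 were EGR1, an immediate early transcription factor, and CCN2, a matricellular protein, named after their values were seen. EGR1 stood at 34.5 and 11.6 CPM in the shRNA 1-labelled and shRNA 2-labelled libraries and at 113.9 CPM in the control. CCN2 stood at 68.6, 21.5 and 148.9 CPM in that order. These are places in the contrast by which H19 was chosen and support nothing beyond it.

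The plus-strand rows inside H19 were lower as well. ENSG00000275266 had 64 and 46 counts in the shRNA 1-labelled and shRNA 2-labelled libraries, against 846 in the control, with ratios of 0.0764 (0.0583 to 0.0986) and 0.0480 (0.0349 to 0.0646). ENSG00000274866 had 2, 12 and 44 counts in that order, with ratios of 0.0459 (0.00539 to 0.176) and 0.241 (0.116 to 0.464). The first row amounted to 16.98% of the H19 count with the label shRNA 1, 3.57% with the label shRNA 2 and 16.7% in the control. So H19 was higher in the library labelled shRNA 2 than in the library labelled shRNA 1, while this row, 71 bases inside it, was 1.59 times as high (1.07 to 2.38) in the library labelled shRNA 1 as in the library labelled shRNA 2. Whether these reads come from a plus-strand RNA or from H19 itself cannot be told apart, since no source used here names the library kit. H19 shares 9.06% of its exonic bases with such opposite-strand rows and 4% with ENSG00000278648 on its own strand, where a read overlapping both is not assigned to H19 by the counting program's default.

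Among genes with at least 5 CPM in the control, those whose pattern was most like that of H19 came from other chromosomes. That minimum leaves out the row ENSG00000274866 inside H19, at 2.86 CPM in the control. Its log2 ratios were -3.54 with the label shRNA 1 and -1.875 with the label shRNA 2. Likeness was the distance between the pairs of log2 ratios to the control (prior count 2) over 3 libraries, among 12081 tested genes with at least 5 CPM in the control. The 5 nearest were IGFBP5, which encodes a binding protein for insulin-like growth factors, CNTN1, a neural adhesion protein, C1orf21, KRT23, a keratin, and FREM2, an extracellular matrix protein. IGFBP5 had 7, 23 and 100 counts in the shRNA 1-labelled and shRNA 2-labelled libraries and in the control. CNTN1, the most abundant of them, had 70, 226 and 819 counts in that order. IGFBP5, KRT23 and FREM2 reached 5 CPM in the control only, the library in which they are highest, so the minimum bears on their place here. None of these 5 belongs to the imprinted lists used here.

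Next to H19 on chromosome 11, IGF2 lay on the other side of the control. IGF2 (ENSG00000167244.18, chr11:2129112-2141238, minus strand), whose annotated start is 139.8 kb from that of H19, was counted 326 times in each shRNA library and 208 times in the control. Its level was 21.4 CPM (19.2 to 23.9) in the shRNA 1-labelled library, 18.7 CPM (16.8 to 20.9) in the shRNA 2-labelled library and 13.5 CPM (11.8 to 15.5) in the control. Both shRNA libraries lay above the control, and their own intervals overlapped. The ratios to the control were 1.58 (1.33 to 1.89) and 1.38 (1.16 to 1.66). Per kilobase of exon, H19 was 2.56 times as high as IGF2 in the library labelled shRNA 1, 8.75 times in the library labelled shRNA 2 and 54.0 times in the control. IGF2 shares 21.9% of its exonic bases with other rows on its strand, INS-IGF2 among them, so reads from those bases may be missing from its level.

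CDKN1C, which encodes the cyclin-dependent kinase inhibitor p57 and is transcribed from the maternal copy like H19, split the shRNA libraries. CDKN1C (ENSG00000129757.12, chr11:2883213-2885881, minus strand) had 10 and 57 counts in the shRNA 1-labelled and shRNA 2-labelled libraries, against 17 in the control. That is 0.658 CPM (0.315 to 1.21), 3.28 CPM (2.48 to 4.25) and 1.11 CPM (0.645 to 1.77). The library labelled shRNA 2 was above the other libraries beyond counting error, while the interval of the ratio of the library labelled shRNA 1 to the control, 0.243 to 1.37, spans equality. KCNQ1OT1 (chr11:2608328-2699994), the paternally transcribed long non-coding RNA that silences CDKN1C and its neighbours in cis, had 0 counts in each shRNA library and 1 in the control over 91667 annotated bases. A count of 0 allows up to 0.197 CPM with the label shRNA 1 and 0.172 CPM with the label shRNA 2, and the control's interval reached 0.363 CPM. At this depth no difference in KCNQ1OT1 was detectable.

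The other genes around H19 were read for the same pattern. Of 58 other genes starting within 500 kb of the H19 start, 16 had at least 1 CPM in some library. Of these, 8 were lower than the control with either label, beside 27.0% of all tested genes, and 2 were higher with either, beside 28.2%. At least 2-fold lower with either label were 3, beside 1.19% of all. They were the 2 plus-strand rows inside H19 and TNNT3, which encodes a fast skeletal muscle troponin T and starts 81.9 kb away. TNNT3 and ENSG00000274866 reached 1 CPM in the control only, the library in which they are highest, so the minimum bears on their place in this count. TNNT3 had 2 and 1 counts in the shRNA 1-labelled and shRNA 2-labelled libraries, against 24 in the control, with ratios of 0.0842 (0.00964 to 0.339) and 0.0368 (0.000895 to 0.226). MRPL23, a mitochondrial ribosomal protein gene that lies between TNNT3 and H19 with its start 54.2 kb from that of H19, stood at 19.7, 19.4 and 20.8 CPM in the shRNA 1-labelled and shRNA 2-labelled libraries and in the control. CD81, a tetraspanin, lay at 107.6, 113.8 and 119.7 CPM in that order. CTSD, the lysosomal protease cathepsin D, lay on opposite sides of the control at 103.1, 236.4 and 169.7 CPM.

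**Figure D2:**
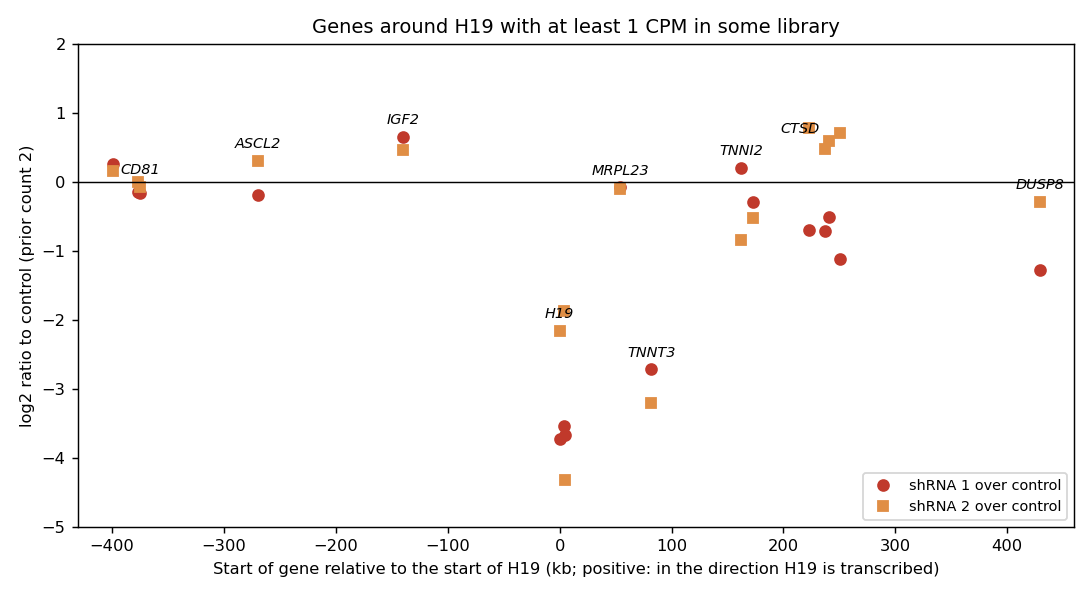
Points give the log2 ratio of each shRNA library to the control (prior count 2) for H19 and the 16 genes within 500 kb that had at least 1 CPM in some library, by the distance of their start from that of H19 in kb. H19, the 2 plus-strand rows inside it and TNNT3 lie below -1 in both libraries, while IGF2 lies above 0 and MRPL23 near 0 in both.

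On chromosome 7, PEG10 was the most abundant of the 10 genes in both shRNA libraries per kilobase of exon. PEG10 derives from a retrotransposon and encodes a Gag-like protein, is transcribed from the paternal copy and is needed for the placenta in mice. PEG10 (ENSG00000242265.5, chr7:94656325-94669695, plus strand) was counted 19582 and 13653 times in the shRNA 1-labelled and shRNA 2-labelled libraries and 8731 times in the control. Its level was 1288 CPM (1270 to 1306), 785 CPM (772 to 798) and 568 CPM (557 to 580) in that order. Both shRNA libraries were above the control, with ratios of 2.27 (2.21 to 2.32) and 1.38 (1.34 to 1.42), and no interval overlapped another.

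SGCE, which encodes epsilon-sarcoglycan, is read in the opposite direction from a start 116 bases from that of PEG10, yet it did not stand with PEG10. SGCE (ENSG00000127990.15, chr7:94585230-94656209, minus strand) stood at 45.0 CPM (41.7 to 48.5) in the shRNA 1-labelled library, 49.96 CPM (46.7 to 53.4) in the shRNA 2-labelled library and 51.8 CPM (48.3 to 55.5) in the control. The ratio to the control was 0.868 (0.783 to 0.963) with the label shRNA 1, below equality, and 0.964 (0.875 to 1.06) with the label shRNA 2, which spans it. PEG10 was 10.9, 5.98 and 4.18 times as high as SGCE per kilobase in the shRNA 1-labelled and shRNA 2-labelled libraries and in the control.

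MEST, on another part of chromosome 7, encodes a protein related to hydrolases and is expressed from the paternal copy. MEST (ENSG00000106484.14, chr7:130486171-130506296, plus strand) stood at 51.7 CPM (48.1 to 55.4), 42.3 CPM (39.3 to 45.5) and 57.9 CPM (54.1 to 61.8) in the shRNA 1-labelled and shRNA 2-labelled libraries and in the control. Both shRNA libraries were slightly below the control, with ratios of 0.893 (0.810 to 0.984) and 0.731 (0.662 to 0.807). MEST shares 24.7% of its exonic bases with opposite-strand genes, among them ENSG00000270823 with 189, 207 and 230 counts in that order, so its level is uncertain.

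PLAGL1, on chromosome 6, encodes a zinc finger transcription factor that in mice regulates other imprinted genes, H19 among them. PLAGL1 (ENSG00000118495.18, chr6:143940300-144064599, minus strand) stood at 30.9 CPM (28.2 to 33.8) in the shRNA 1-labelled library, 20.9 CPM (18.8 to 23.1) in the shRNA 2-labelled library and 22.5 CPM (20.2 to 25.0) in the control. Only the library labelled shRNA 1 lay apart among these 3, since the interval of the shRNA 2 ratio, 0.800 to 1.08, spans equality.

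Of the Prader-Willi region on chromosome 15, NDN and SNRPN had 0 counts in all 3 libraries. They are NDN (chr15:23685400-23687330), which encodes necdin, a MAGE family protein, and SNRPN (chr15:24823637-24978723), which encodes the splicing protein SmN. For each, 0 counts allow up to 0.197, 0.172 and 0.195 CPM in the shRNA 1-labelled and shRNA 2-labelled libraries and in the control. SNRPN shares 39.2% of its exonic bases with same-strand genes, where reads are not assigned, whereas NDN shares 0%. SNURF and MAGEL2 of the same region were also at 0 counts in each library. SNURF shares 69.3% of its exonic bases with same-strand genes, so its 0 has the same limit as that of SNRPN. Not all genes of the region were at 0. MKRN3, a zinc finger gene beside NDN, stood at 11.6, 13.0 and 11.7 CPM in the shRNA 1-labelled and shRNA 2-labelled libraries and in the control. SNHG14, the long host RNA downstream of SNRPN, stood at 8.81, 6.55 and 4.75 CPM in that order.

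Read together, 7 of the 10 genes passed the filter on low counts, and KCNQ1OT1, SNRPN and NDN did not. CDKN1C is the least counted of those that passed. Below the control in both shRNA libraries were 3 of the 7 (H19, MEST and SGCE), where 27.0% of all 17801 tested genes were. Above it in both were 2 (IGF2 and PEG10), where 28.2% of all were, and on opposite sides 2 (CDKN1C and PLAGL1), where 44.8% of all were. At least 2-fold lower in both was H19 alone, where 1.19% of all were, and 0 of the 7 were at least 2-fold higher in both, where 0.977% were. Between the shRNA libraries, 2 of the 7 (H19 and CDKN1C) differed at least 2-fold, where 12.2% of all did. In the shRNA 1-labelled library alone, 1 of the 7 was at least 2-fold lower (H19; 5.58% of all) and 1 at least 2-fold higher (PEG10; 3.74% of all). In the shRNA 2-labelled library alone, 1 was lower (H19; 3.46% of all) and 1 higher (CDKN1C; 2.98% of all). Both ratios share 1 control and H19 was chosen on them, so nothing is read from its own place in these counts. Mean log2 ratios over both shRNA libraries ran from -2.94 ± 1.11 for H19 to 0.82 ± 0.50 for PEG10 (SD, n = 2).

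**Figure D3:**
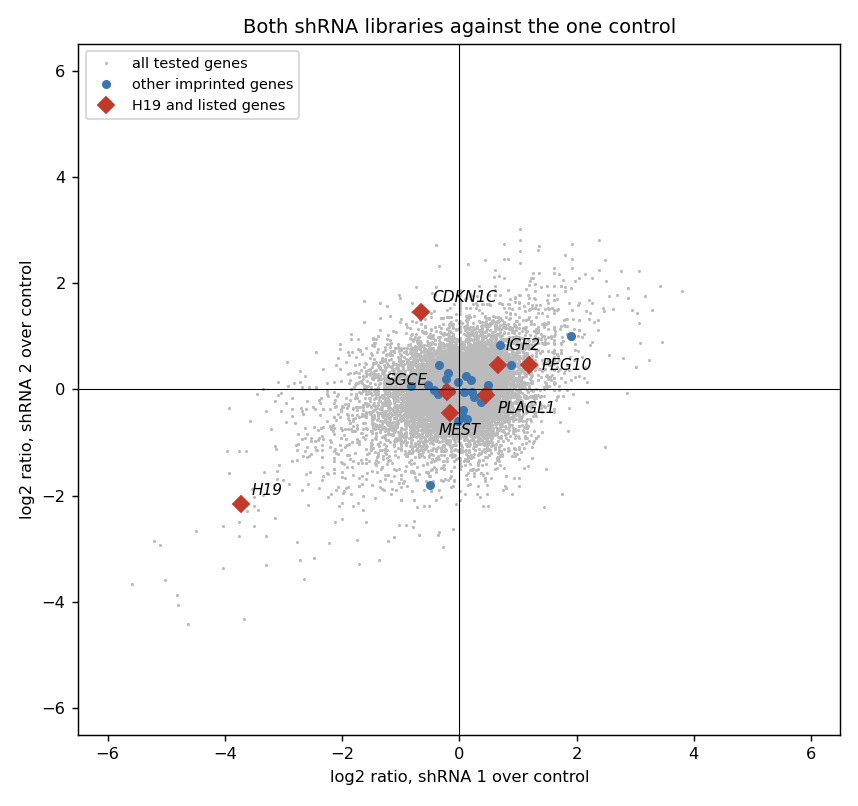
Each point is a gene, placed by its log2 ratio to the control in the library labelled shRNA 1 (x axis) and in the library labelled shRNA 2 (y axis), for 17801 tested genes in grey, 26 other imprinted genes in blue and 7 of the listed genes as red diamonds. H19 lies at -3.73 and -2.15, apart from the other 6 listed genes, which stay between -0.65 and 1.18 in the library labelled shRNA 1.

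The order of levels per kilobase changed at its top and in the places of PLAGL1 and IGF2. In the library labelled shRNA 1 the order was PEG10 (193 CPM per kb), SGCE (17.7), MEST (11.2), H19 (8.78), PLAGL1 (3.54), IGF2 (3.42) and CDKN1C (0.254). In the library labelled shRNA 2 it was PEG10 (117), H19 (26.2), SGCE (19.6), MEST (9.14), IGF2 (2.99), PLAGL1 (2.39) and CDKN1C (1.27). In the control H19 led at 117 CPM per kb, before PEG10 (85.0), SGCE (20.3), MEST (12.5), PLAGL1 (2.58), IGF2 (2.16) and CDKN1C (0.428). PLAGL1 and IGF2 did not differ beyond counting error in the library labelled shRNA 1 or in the control.

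To see how far the pattern of H19 extends, a list of 48 other genes reported as imprinted was read in the same fit. Of these, 13 had 0 counts in every library, among them DLK1, MEG3, MEG8 and RTL1 of the chromosome 14 domain and PEG3 and ZIM2 of chromosome 19. Of the 26 that passed the filter, edgeR's quasi-likelihood test called 0 higher and 0 lower at an adjusted p under 0.05, and 0 at an unadjusted p under 0.05. DESeq2 and edgeR's likelihood ratio test each called 0 of the 26. Among all 17801 tested genes DESeq2 called 1 higher and 14 lower, and the likelihood ratio test 2 and 36. Over all 17801 genes the quasi-likelihood test called 0 (0% in each direction), with 237 at an unadjusted p under 0.05, and its spread rests on the 2 shRNA lines alone, which limits what the absence of calls can say. Below the control in both shRNA libraries were 5 of 26, against 27.0% of all, and above it in both were 6, against 28.2% of all. The other 15 lay on opposite sides, against 44.8% of all. Their median log2 ratios were 0.06 and 0.00 in the shRNA 1-labelled and shRNA 2-labelled libraries, beside 0.01 and 0.00 for all tested genes. None was at least 2-fold lower in both, where 1.19% of all tested genes were, so few or none would be looked for among 26 genes.

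Single genes of that list lay on either side of the control. KLF14, a Kruppel-like transcription factor near MEST, had 31, 18 and 7 counts in the shRNA 1-labelled and shRNA 2-labelled libraries and in the control, with an edgeR log2 fold change of 1.73 (SE 0.92). CASD1, a sialic acid acetyltransferase gene near SGCE, stood at 12.4, 13.7 and 7.62 CPM (log2 fold change 0.77, SE 0.42). SNHG14 had a log2 fold change of 0.69 (SE 0.48) and UBE3A, a ubiquitin ligase gene that SNHG14 silences in neurons, one of 0.31 (SE 0.34). MCTS2, a retrogene on chromosome 20, stood at 2.43, 0.92 and 3.52 CPM (log2 fold change -1.08, SE 0.69) and shares 34.6% of its exonic bases with a gene on its strand. SLC22A18, a transporter gene near CDKN1C, stood at 8.75, 16.4 and 15.6 CPM. The receptor IGF2R, the G protein subunit GNAS, INPP5F and NNAT had log2 fold changes between -0.30 and -0.20. The SE here is worked back from the test and not from replicate cultures.

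**Figure D4:**
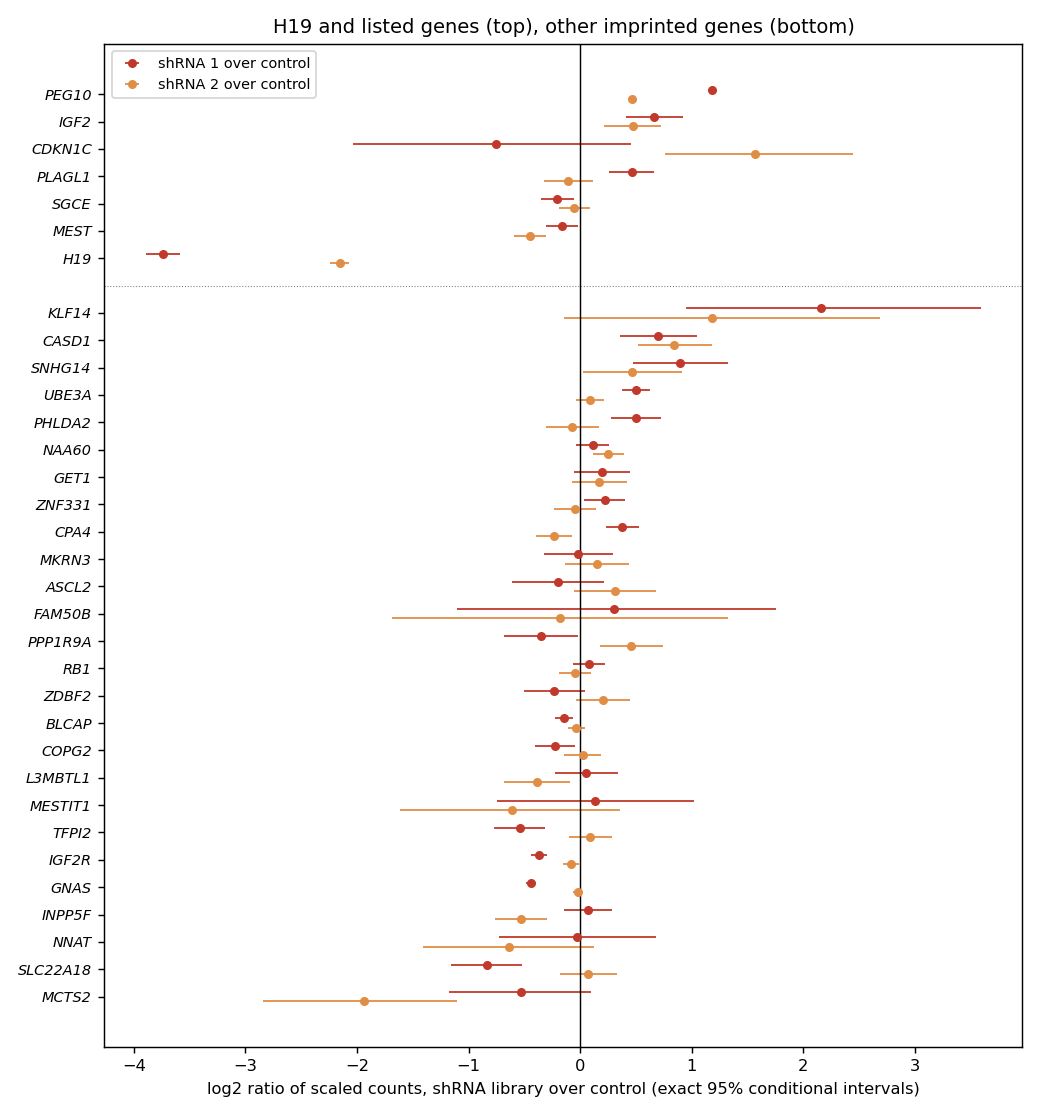
Points give the log2 ratio of counts, scaled by library, of the libraries labelled shRNA 1 and shRNA 2 over the control with exact 95% conditional intervals, for 7 of the listed genes above the dotted line and 26 other imprinted genes below it. H19 stands at the far left in both libraries, and most other genes lie within 1 of 0.

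Genes that act on imprints or on H19 and IGF2 were also read from lists, and edgeR's quasi-likelihood test called 0 in each. At an unadjusted p under 0.05 were 0, beside 237 of all 17801 tested genes. DESeq2 called 0 in each, beside 15 of all. Of 14 tested genes that maintain or read imprints, 2 were lower than the control with either label (27.0% of all tested genes), 3 above it in both (28.2%) and 9 on opposite sides (44.8%). UHRF1, which brings the maintenance methyltransferase to newly replicated DNA, stood at 178.0, 64.9 and 133.8 CPM in the shRNA 1-labelled and shRNA 2-labelled libraries and in the control. DNMT1, that methyltransferase, stood at 258.8, 143.5 and 201.0 CPM in that order. DNMT3B, a de novo methyltransferase, stood at 19.7, 21.4 and 27.7 CPM, and CTCF at 64.8, 72.2 and 60.5 CPM. Their part in the level of H19 was not tested.

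Of 6 receptors and RNA-binding proteins of IGF2, 4 were lower than the control with either label, against 27.0% of all tested genes. Above it in both were 0, against 28.2% of all. IGF1R, the receptor that carries the IGF2 signal, stood at 100.02, 110.2 and 131.6 CPM in the shRNA 1-labelled and shRNA 2-labelled libraries and in the control, and IGF2BP2 at 224.7, 243.0 and 300.6 CPM. Of 14 reported regulators and partners of H19, 11 lay on opposite sides of the control, beside 44.8% of all tested genes, and 2 (DICER1 and HIF1A) were higher with either label, beside 28.2%. MYC, reported to induce H19, stood at 143.5, 74.0 and 131.2 CPM. HIF1A, the oxygen-regulated transcription factor, stood at 158.3, 141.1 and 119.5 CPM in that order.

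Promoter sequence was compared because germ-line methylation acts on CpG-rich DNA. RefSeq promoters (GRCh38.p14, 250 bases before to 50 after a start) were found for 5 of the 10 genes, H19, MEST, SNRPN, NDN and PLAGL1. For a gene with several the most CpG-rich was taken. H19 and NDN had 1 promoter each, MEST and PLAGL1 5 each and SNRPN 4. The choice thus favours more CpG in MEST, PLAGL1 and SNRPN than in H19 or in all promoters, which were not chosen so. H19 is shown as a gene at least 2-fold lower than the control in both shRNA libraries. MEST is shown as a gene slightly below the control in both, and NDN as a gene with no count. CpG pairs are in capitals.
H19 (chr11:2001217-2001516, minus strand): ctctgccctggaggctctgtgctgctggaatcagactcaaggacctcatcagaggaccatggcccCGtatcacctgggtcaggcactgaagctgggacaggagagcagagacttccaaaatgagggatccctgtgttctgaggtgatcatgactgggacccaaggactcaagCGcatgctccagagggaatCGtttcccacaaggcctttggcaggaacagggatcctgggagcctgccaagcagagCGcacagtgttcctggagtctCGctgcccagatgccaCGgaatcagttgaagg
MEST (chr7:130491835-130492134, plus strand): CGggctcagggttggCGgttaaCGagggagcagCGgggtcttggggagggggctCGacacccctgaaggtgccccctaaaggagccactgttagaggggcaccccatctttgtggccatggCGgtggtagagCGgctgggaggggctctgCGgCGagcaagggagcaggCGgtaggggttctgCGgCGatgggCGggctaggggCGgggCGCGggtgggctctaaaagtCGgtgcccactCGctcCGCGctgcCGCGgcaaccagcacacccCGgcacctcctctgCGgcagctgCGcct
NDN (chr15:23687256-23687555, minus strand): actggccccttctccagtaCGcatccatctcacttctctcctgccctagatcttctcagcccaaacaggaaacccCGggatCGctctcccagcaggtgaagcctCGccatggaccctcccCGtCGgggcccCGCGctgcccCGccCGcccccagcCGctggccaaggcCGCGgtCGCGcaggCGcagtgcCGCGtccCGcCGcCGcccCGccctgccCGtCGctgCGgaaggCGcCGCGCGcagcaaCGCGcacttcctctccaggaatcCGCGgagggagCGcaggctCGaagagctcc
The H19 window held 6 CpG, fewer than the median of 14 over 35116 RefSeq promoters of this length. MEST held 25, SNRPN 18, NDN 35 and PLAGL1 39. The hexamer TGCCGC, the core bound by the imprint-protecting factor ZFP57 when methylated, was sought on both strands. It was in the windows of MEST, SNRPN, NDN and PLAGL1 and not in that of H19, and 16.7% of all these promoters hold it. These windows are promoters and were not chosen as regions methylated in the germ line. The control region shared by H19 and IGF2 was not examined, so nothing here describes its CpG or hexamer content. A match is a run of letters and not a shown binding site, and the counts carry no measure of methylation.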

How the data were processed

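RNA of 3 KYSE30 lines was sequenced, 1 library each. The authors counted reads per gene with featureCounts 1.6.4 (strand option 1, hg38 annotation), per the file headers, and deposited the unnormalized counts. The submitters' processing notes list other names, TopHat2, HTSeq and hg19. Positions matched GENCODE 29 for all 52179 identifiers of equal version, and 56558 of 60554 matched a name table.

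The tests ran in R 4.3.3 (edgeR 4.0.16, DESeq2 1.42.0). The filter filterByExpr left 17801 genes, and TMM set the library scaling. The main comparison, both shRNA libraries over the control, used edgeR's quasi-likelihood test, two-sided, Benjamini-Hochberg adjusted at 0.05 over all tested genes, with 1 residual degree of freedom. It was tested on simulated data with large planted changes in well-counted genes and a common spread, so smaller changes were not covered. Where lines are not known to stand for separate cultures of a condition, such p-values measure only the spread between these libraries. Log2 ratios of single libraries use a prior count of 2. Poisson and conditional intervals came from SciPy 1.17.1, and exon overlaps from bedtools 2.31.1. For 0 counts the upper limit printed is 3 counts.

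The 10 genes, the lists and the tests were chosen with earlier results of these data known. Named were all 10 genes, up to 10 of the other imprinted genes and up to 6 of each further list averaging 1 CPM or more, with the largest mean log2 ratios, expressed neighbours of H19, overlapping genes and the 5 genes most like H19. Further genes of these lists are named for their role. A gene of the regulator list is not reported here. Alternatives covered scaling, filter, test, prior count, overlapping genes and leaving out each shRNA library.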

Additional observations from a re-analysis of the deposited data

How the results depend on the processing

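The mean log2 ratio of H19 to the control (-2.94) stayed between -2.94 and -2.93 with DESeq2 size factors, total counts or a prior count of 0.5. Leaving out each shRNA library in turn gave -3.73 and -2.15. PLAGL1 and CDKN1C changed side with the library left out, at -0.11 and 1.47 without the library labelled shRNA 1 and at 0.46 and -0.65 without the library labelled shRNA 2. Of the listed genes, 3 of 7 lay below the control in both, and 1 of 4 did without genes that share over 10% of exonic bases, a setting that also removes H19. Of the other imprinted genes, 5 of 26 were below in both, against 10 of 35 with no filter and 12 to 13 of 26 in a single shRNA library, where fewer libraries must be below. None of them was called under any setting run. Over all genes, calls were 0 higher and 0 lower, against 1 and 14 with DESeq2, 2 and 36 by the likelihood ratio test of edgeR, 4 and 37 without the filter, and 0 and 1 with total counts. At least 2-fold higher in both were 174 genes, against 469 with no filter and 531 to 665 in a single library. At least 2-fold lower were 212, against 1005 with no filter and 616 to 994 in a single library. No paired analysis was possible because the control has 1 library. The cause of the other shifts was not tested. Depth limits KCNQ1OT1, SNRPN, NDN, CDKN1C and TNNT3, and no setting replaces replicate cultures. SNRPN is limited also by reads on shared bases, which are not assigned at any depth.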
